A study of Mus musculus with 5 samples.

Results

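Rhox5-positive tumour-like cells were picked out of 5 libraries of sorted CD45-positive cells by their own measured values, so the cells were chosen by the levels of the rule's genes, which describe them and test nothing. A barcode needed at least 2 unique molecular identifiers (UMIs, counts of captured RNA molecules) of Rhox5, at least 5 over Col1a1, Col1a2, Col3a1 and Sparc together, no UMI of Ptprc, the gene of CD45, and at most 5 over the complement genes C1qa, C1qb and C1qc, which mark macrophages. Of 57661 barcodes kept (500 UMIs and 250 genes or more, mitochondrial UMIs of 10% or less), 208 met the rule. They were 26, 14 and 26 in the libraries Scramble 1, 2 and 3 and 55 and 87 in JAG2KO 1 and 2.

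The libraries came from tumours that Lewis Lung Carcinoma (LLC) cells, a mouse lung carcinoma line, formed in the flanks of mice. The injected cells were of a control line (Scramble) or of a line given an sgRNA, a CRISPR guide, against JAG2 (JAG2KO). Tumours of both groups were taken at endpoint, dissociated with Liberase, stained for CD45 and with PI, a dye that enters dead cells, and sorted for CD45+/PI- cells before droplet sequencing. The labels give no mouse strain, sex or age, do not say whether a library came from 1 tumour, and do not say whether each guide line was a clone or a pool, so p-values measure the spread between these libraries, and the guide cannot be told apart from other differences between the 2 lines or their tumours.

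Rhox5 is an X-linked homeobox gene normally expressed in the testis, epididymis, ovary and placenta and often switched on in tumour cell lines. CD45 is carried by blood-derived cells and not by carcinoma cells or fibroblasts. Jag2 encodes a Notch ligand, a membrane protein that activates Notch receptors on a neighbouring cell, and fibrillar collagens, their cross-linking enzymes and matrix proteases build and cut the scaffold around tumour cells.

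Sequences are given for a pair of genes whose levels differed widely between the groups, one read in JAG2KO and one mainly in Scramble. They run 5′ to 3′ on the gene's strand from 250 bases before to 50 after the start of transcription, are credited to RefSeq (GRCm38.p6) and lie at chr6:117168285-117168584 and chr9:7445572-7445871, both on the plus strand. Capitals mark CG pairs in the first, which has 20 of them, a number that 26.5% of 32851 such promoters reach or pass, and TGAGTCA, the letters that AP-1 factors recognise, in the second, which has 1 match, both strands counted, and 1 CG.
Cxcl12: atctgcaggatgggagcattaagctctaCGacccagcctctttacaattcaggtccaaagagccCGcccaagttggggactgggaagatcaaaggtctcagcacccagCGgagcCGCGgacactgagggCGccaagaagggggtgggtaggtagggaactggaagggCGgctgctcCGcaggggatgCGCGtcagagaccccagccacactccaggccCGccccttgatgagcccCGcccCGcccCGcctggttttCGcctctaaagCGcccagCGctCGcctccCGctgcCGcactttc
Mmp3: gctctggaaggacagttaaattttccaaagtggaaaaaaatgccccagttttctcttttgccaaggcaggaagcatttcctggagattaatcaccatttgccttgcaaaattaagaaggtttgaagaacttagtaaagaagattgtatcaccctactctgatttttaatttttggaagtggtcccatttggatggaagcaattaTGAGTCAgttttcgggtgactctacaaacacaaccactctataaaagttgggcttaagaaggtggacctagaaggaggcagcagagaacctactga
TGAGTCA on either strand was in 5.2% of the promoters and not in the Cxcl12 window. A match is a description of letters only.

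The cells were deep, in part by the rule. Their median was 23809, 26441 and 37763 UMIs in Scramble 1, 2 and 3 and 30244 and 25754 in JAG2KO 1 and 2, against 8064.5 to 8965 over all kept barcodes of the first 4 libraries and 2422 in JAG2KO 2, a library apart in its 19338 kept barcodes and low depth. The rule's minimum counts of Rhox5, collagens and Sparc are harder to reach in shallow barcodes. After each barcode was thinned to 1500 UMIs, 5 to 11 barcodes per library met the rule. Summed over the Rhox5-positive cells, 410762 to 2625841 UMIs per library were available. Between 17 and 54 kept barcodes were shared by pairs of libraries, and none of them was a Rhox5-positive cell.

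Rhox5 alone did not mark these cells. At least 2 Rhox5 UMIs were found in 216, 187 and 115 kept barcodes of Scramble 1, 2 and 3 and 228 and 272 of JAG2KO 1 and 2, of which 164, 137, 62, 114 and 139 also held Ptprc. In the cells that met the whole rule its median was 16, 18.5 and 17.5 UMIs per cell in Scramble and 14 in both JAG2KO libraries, with a highest cell of 147. Just outside the limit, 0, 0, 1, 0 and 5 barcodes met all else with exactly 1 Rhox5 UMI, and just inside it 0, 1, 0, 2 and 1 had exactly 2. Rhox5 UMIs also reached other droplets: 2 or more were seen in 2.47, 1.99 and 1.11% of macrophage barcodes (at least 10 C1q UMIs) of the Scramble libraries and in 1.15 and 1.11% of those of JAG2KO, at median depths of 4756.5 to 11185 UMIs, and in 1 of 2319 neutrophil barcodes at 1150 to 1945 UMIs. Levels are given as CPM, the UMIs of a gene per 1000000 UMIs summed over the cells of a library, and that of Rhox5 was 695, 611 and 642 in Scramble 1, 2 and 3 and 665 and 628 in JAG2KO 1 and 2, and the groups overlapped. Rhox2h, a neighbour of Rhox5 on the X chromosome, was read at 100.3 to 151 CPM in Scramble and 117 to 129 in JAG2KO, but Rhox genes are near-identical copies and their split is uncertain. Of 22 other Rhox and germline genes on a fixed list, 1 had any UMI.

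The other markers given with the rule were present in nearly every cell. Sparc, a collagen-binding matrix protein, stood at 554 to 717 CPM in Scramble and 343 to 419 in JAG2KO. Serpinh1, the chaperone of collagen folding, stood at 497 to 668 and 538 to 549.9, and Cald1, an actin-binding protein of contractile cells, at 976 to 1273 and 672 to 772. In macrophage barcodes the means of these 3 genes were 14.5, 9.51 and 18.2.

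Fibroblast genes and simple-epithelium keratins were read in the same population. All 14 fibroblast markers had a UMI somewhere, led by Dcn (decorin) at 1263 to 1965 and 759.7 to 815 and Lum (lumican) at 608 to 991 and 391 to 404. Of 14 epithelial markers 6 had a UMI: Krt18 reached 149 to 217 and 190.0 to 306 and Krt8 43.8 to 72.4 and 20.6 to 86.1, while Epcam was at 0 in all 208 cells. Hmga2, a chromatin protein of embryonic tissue and tumours, was detected in 92.9 to 100% of cells at 382 to 539 and 433 to 454. The 91 barcodes that met the same rule with Rhox5 at 0 had 0 to 94.2 CPM of Hmga2 and 0 to 16.6 of Krt18. They numbered 4, 3 and 3 in Scramble and 18 and 63 in JAG2KO, so a 0 in Scramble rests on few cells. They were mixed, with 24.4 to 1104 CPM of the endothelial marker Pecam1. Rhox5 and the lack of CD45 RNA were set by the rule, so outside the rule the label rests on Hmga2 and other genes. These include Krt8, Krt18 and the imprinted gene H19. Over the libraries Krt8 had a mean of 59.0 CPM in Rhox5-positive cells and 0 in the Rhox5-negative barcodes. Krt18 had means of 212 and 4.42, and H19 of 457 and 21.9. No value here shows the line of origin directly: Xist was read at 557 to 916 and 682 to 904 in these cells and at 1356 in macrophage barcodes, and Ddx3y, a Y-linked gene, at 0.

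The fibrillar collagens were used unequally. Col3a1 was among the 15 genes of highest level, at 3708, 4682 and 4439 in Scramble 1, 2 and 3 and 3023 and 2832 in JAG2KO 1 and 2. Col1a1, the gene of the other main fibrillar chain, was at 68.3, 136 and 42.4 in Scramble 1, 2 and 3 and 206 and 97.5 in JAG2KO 1 and 2, and its partner Col1a2 had no UMI in 3 of 5 libraries and 1 UMI in Scramble 2. All but 1 of the 221 Col1a2 UMIs of JAG2KO 1 came from a single cell with 2 Rhox5 UMIs, 315 Col1a1 UMIs and 18905 UMIs in all. Rhox5-negative collagen-rich barcodes had 276 to 7925 Col1a2 CPM. The other genes of highest level included Malat1, S100a6, Lgals1, Vim and S100a4.

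RNA of other cells was present at low levels, in part by the rule, which allows at most 5 C1q UMIs and no Ptprc. Median C1q was 3.5, 3.5 and 4 UMIs per cell in Scramble 1, 2 and 3 and 4 and 1 in JAG2KO 1 and 2. The 12 macrophage markers summed to 408 to 679 CPM in Rhox5-positive cells of Scramble and 226 to 520.4 of JAG2KO, with none at 0, against 33940.5 to 38942 and 35104 to 35412 in macrophage barcodes. The 8 neutrophil markers summed to 49.2 to 95.1 in Scramble and 12.9 to 19 in JAG2KO, with 2 or 3 markers at 0. The 6 B and plasma cell markers summed to 0.965 to 5.36 and 17.4 to 26.7. Their part in the results was not tested.

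More Rhox5-positive cells were found in JAG2KO than in Scramble libraries under the rule as given, but the C1q condition fell unevenly on the libraries. They made up 0.274, 0.136 and 0.316% of kept barcodes of Scramble 1, 2 and 3 and 0.535 and 0.450% of JAG2KO 1 and 2, means of 0.242% ± 0.0945 (SD, n = 3) and 0.493% ± 0.0605 (SD, n = 2), so the groups did not overlap. The two-sided exact permutation p over the 5 libraries was 0.1, the smallest that 10 arrangements allow. By library, exact (Clopper-Pearson) 95% intervals, limited to counting error, reached from 0.179 to 0.401%, 0.0741 to 0.227% and 0.207 to 0.463% in Scramble and from 0.404 to 0.696% and 0.360 to 0.555% in JAG2KO. Per 100 macrophage barcodes there were 0.477, 0.227 and 0.550 against 0.873 and 0.785. The C1q limit removed 18, 33 and 25 otherwise matching barcodes from the Scramble libraries and 46 and 12 from JAG2KO. Those removed differed in depth, with medians of 48614, 34544 and 51675 UMIs in Scramble and 45139.5 and 3670 in JAG2KO. Their median C1q was 7, 10 and 9 UMIs against 8 and 16. Without this limit the shares were 0.463, 0.455 and 0.620% against 0.983 and 0.512%, the groups overlapped, and the exact permutation p was 0.3. With C1q limited to 0.1% of UMIs instead, they were 0.453, 0.455 and 0.620% against 0.964 and 0.455%. The groups overlapped there too, at an exact permutation p of 0.6. Applied after each barcode was thinned to 1500 UMIs, the rule gave 0.0802, 0.0860 and 0.0667% against 0.0737 and 0.0880%, with an exact permutation p of 0.8. These were in part other barcodes: 4 of 7, 4 of 8 and 1 of 5 in Scramble and 2 of 7 and 10 of 11 in JAG2KO also met the rule as given. A share in a library sorted for CD45 also measures how many cells passed the gate, which was not tested.

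**Figure D1:**
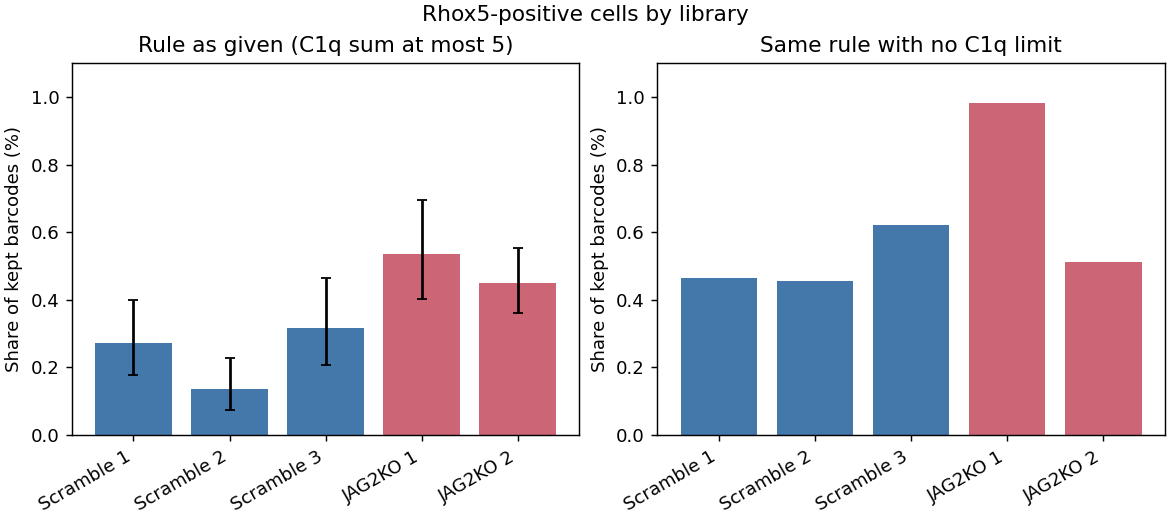
Share of kept barcodes (%) that met the rule in each library, on the left with the C1q limit and right without it, blue for Scramble and red for JAG2KO, and error bars are exact 95% intervals. JAG2KO libraries at 0.535 and 0.450% lie above the Scramble libraries on the left, while on the right JAG2KO 2 at 0.512% lies below Scramble 3 at 0.620%.

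The targeted gene could not be checked in these cells. Jag2 had 1 UMI in all 208 cells, in Scramble 2, and a 3′ tag outside an edited site would not show an edit. Jag1, the related ligand, was at 0.965 to 4.87 CPM in Scramble and 0.528 to 0.762 in JAG2KO, Notch1 at 1.34 to 4.82 and 3.7 to 6.85, and Notch3 and Hey1 at under 1. The receptor with clear RNA was Notch2, at 50.9, 41.4 and 55 in Scramble 1, 2 and 3 and 57.6 and 112 in JAG2KO 1 and 2, a difference of log2 0.76 ± 0.32 (SE) that did not pass (edgeR adjusted p = 0.257). Hes1, a target of Notch signalling, was at 33.5, 26.8 and 16.4 against 29.1 and 19 (adjusted p = 0.97). Of 11 tested genes of Notch ligands, receptors and processing and 10 of effectors and targets, none was called in either direction by edgeR, with or without Scramble 2, at medians of -0.20 and 0.06.

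Gene levels were compared on UMIs summed per library over the Rhox5-positive cells, with edgeR's quasi-likelihood test. Scramble 2 had 14 cells, under the minimum of 20, and was left out of the fit, so that Scramble 1 and 3 were compared with JAG2KO 1 and 2, while its levels are printed for every gene. Of 9020 genes tested, 63 were higher in JAG2KO (0.698%) and 137 lower (1.52%) at an adjusted p under 0.05, and 1516 had an unadjusted p under 0.05. Over all 5 libraries, both JAG2KO levels lay above all Scramble levels in 1223 of the genes (13.6%) and below them in 1805 (20%). With Scramble 2 in the fit, 319 genes were called, 176 of them among the 200. Leaving out Scramble 3, so that Scramble 1 stood alone and was assumed to vary like the JAG2KO libraries, left 55 calls, 41 of them among the 200, and leaving out JAG2KO 1 gave 364. DESeq2 called 104 genes, 88 of them among the 200, and the rule without a C1q limit, which reaches 20 cells in every library, gave 541, of which 184 were among the 200. None of the 200 changed direction in any of these fits in which it was tested.

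Several genes were read in one group and hardly at all in the other. Col5a2, a chain of collagen V that sits inside collagen fibrils and sets their width (chr1:45374321-45503282, beside Col3a1), was at 1.34, 0 and 0 in Scramble 1, 2 and 3 and 161 and 115 in JAG2KO 1 and 2, with UMIs in 3.85, 0 and 0% of Scramble cells by library and 85.5 and 73.6% of JAG2KO cells. Pooled over cells this was 295-fold (counting interval 52.8 to 11679) higher in JAG2KO, on 1 UMI in Scramble (edgeR adjusted p = 8.74e-05). Loxl2, a lysyl oxidase that cross-links collagen (chr14:69609068-69695834), was at 0, 4.87 and 0 against 86.1 and 44.2 (edgeR adjusted p = 0.00232). Pooled over the cells of all libraries it was 67.7-fold (counting interval 18.6 to 562) higher on 2 Scramble UMIs. Both were in Scramble 2, which the fit behind the adjusted p left out. Cxcl12, the chemokine ligand of CXCR4 whose promoter is printed above (chr6:117168535-117181367), had 0 UMIs in all 66 Scramble cells and 95.6 and 61.7 CPM in JAG2KO, at least 55.5-fold higher against a limit of 3 counts over the group (adjusted p = 3.49e-04). Named genes were chosen among those whose groups did not overlap. That all Scramble libraries lay below both JAG2KO libraries in these 3 genes was set by that choice.

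The mirror pattern was seen for genes on in Scramble. Nfib, a nuclear factor I transcription factor (chr4:82290173-82705750), was at 60.3, 36.5 and 64.6 in Scramble 1, 2 and 3 and 0.528 and 0 in JAG2KO 1 and 2 and was found in 65.4, 64.3 and 96.2% of Scramble cells by library and 1.82 and 0% of JAG2KO cells. It was 262-fold (counting interval 46.1 to 10412) lower in JAG2KO, on 1 UMI there (edgeR adjusted p = 8.74e-05). Oplah, the oxoprolinase of glutathione turnover (chr15:76296601-76328015), was at 40.2, 41.4 and 43.4 against 0.528 and 0.381, 94.7-fold (counting interval 25.5 to 794) lower on 2 UMIs (adjusted p = 1.63e-04). Enpp2 (autotaxin, which makes lysophosphatidic acid) was at 117, 39 and 61.7 against 1.06 and 0.381, 115-fold (counting interval 38.6 to 562) lower on 3 UMIs (adjusted p = 1.63e-04). That neither JAG2KO library reached a Scramble library in these genes was likewise set by the choice of genes.

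Mmp3 and Mmp12, metalloproteases that cut matrix proteins and lie in one cluster (chr9:7445822-7455975 and chr9:7344381-7369499), fell with them. Mmp3 was at 264, 609 and 1099 in Scramble 1, 2 and 3 and 3.17 and 8.38 in JAG2KO 1 and 2 (log2 -6.72 ± 0.68 (SE), edgeR adjusted p = 9.94e-04) and Mmp12 at 97.8, 149 and 398 against 1.06 and 8.0 (log2 -5.56 ± 0.69 (SE), adjusted p = 0.00344). Both varied between Scramble libraries, highest in Scramble 3, and the lack of overlap with JAG2KO was a condition for naming them. Mmp12 is also a macrophage gene, with a mean of 112 in macrophage barcodes, where it was not lower in JAG2KO (log2 1.68). Mmp10, next to Mmp3 in the cluster, had 5.79 to 12.2 CPM in Scramble and 0 in JAG2KO and was too low to be tested.

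The other named genes that fell were Rbms3 (-5.16), an RNA-binding protein, Agtr2 (-4.43), an angiotensin receptor, Ccl11 (-4.14), the eosinophil chemokine eotaxin, Nnmt (-3.81), nicotinamide methyltransferase, Tnc (-3.58), tenascin C, Stc1 (-3.54), stanniocalcin, Fkbp10 (-3.28) and P3h4 (-2.87), which act in collagen modification, Fscn1 (-2.92), the actin-bundling fascin, and Mfap4 (-2.67), a microfibril protein, all as log2 fold changes. Fscn1 was at 165, 156 and 194 in Scramble 1, 2 and 3 and 25.9 and 19.8 in JAG2KO 1 and 2, and Stc1 was at 233, 107 and 136 against 25.9 and 6.09. Of the 15 named genes that fell, 10 kept the call without Scramble 3, and Tnc, Rbms3, Mfap4, P3h4 and Agtr2 did not, with adjusted p-values up to 0.165. Mfap4 also lost its call without Scramble 1 (0.108), and DESeq2 gave Tnc, Rbms3 and Mfap4 adjusted p-values of 0.175, 0.24 and 0.908.

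Genes that rose from a measurable level changed less. S100a4, a calcium-binding protein of motile mesenchymal cells, was the most abundant, at 1425, 1375 and 2207 in Scramble 1, 2 and 3 and 4862 and 5082 in JAG2KO 1 and 2, means of 1669 ± 467 (SD, n = 3) and 4972 ± 156 (SD, n = 2). It rose by log2 1.52 ± 0.23 (SE), with an edgeR adjusted p of 0.00957. Every Scramble library lay below both JAG2KO libraries, which was a condition for naming it among these genes. Hopx, a small homeodomain protein, was at 33.5, 26.8 and 23.2 against 113 and 115 (log2 2.10 ± 0.24 (SE), adjusted p = 0.00232), and Emp2, a membrane protein, at 42.9, 43.8 and 28.9 against 125 and 97.5 (log2 1.72, adjusted p = 0.00676). The rest were Ogn (2.91), a small proteoglycan, Sclt1 (2.01) and Plk4 (1.64), both of centrioles, Lgi2 (1.92), Colec12 (1.86), a scavenger receptor, Dlc1 (1.82), Aim2 (1.63), a DNA sensor, Tmem176b (1.53) and Fabp5 (1.37), a fatty acid carrier, as log2 fold changes. Of the 15 named genes that rose, 7 kept the call without Scramble 3, and Aim2, Fabp5, Plk4, Sclt1, Lgi2, Tmem176b, Emp2 and Colec12 did not, with adjusted p-values up to 0.244. Without Scramble 1, Aim2, Plk4 and S100a4 lost it (up to 0.0927). With Scramble 2 in the fit Sclt1 lost it (0.0624). DESeq2 did not call Aim2, Sclt1 and Colec12. Hopx, Aim2, Tmem176b, S100a4 and Fabp5 had macrophage levels of at least 37.1 CPM, and the part of free macrophage RNA was not tested.

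**Figure D2:**
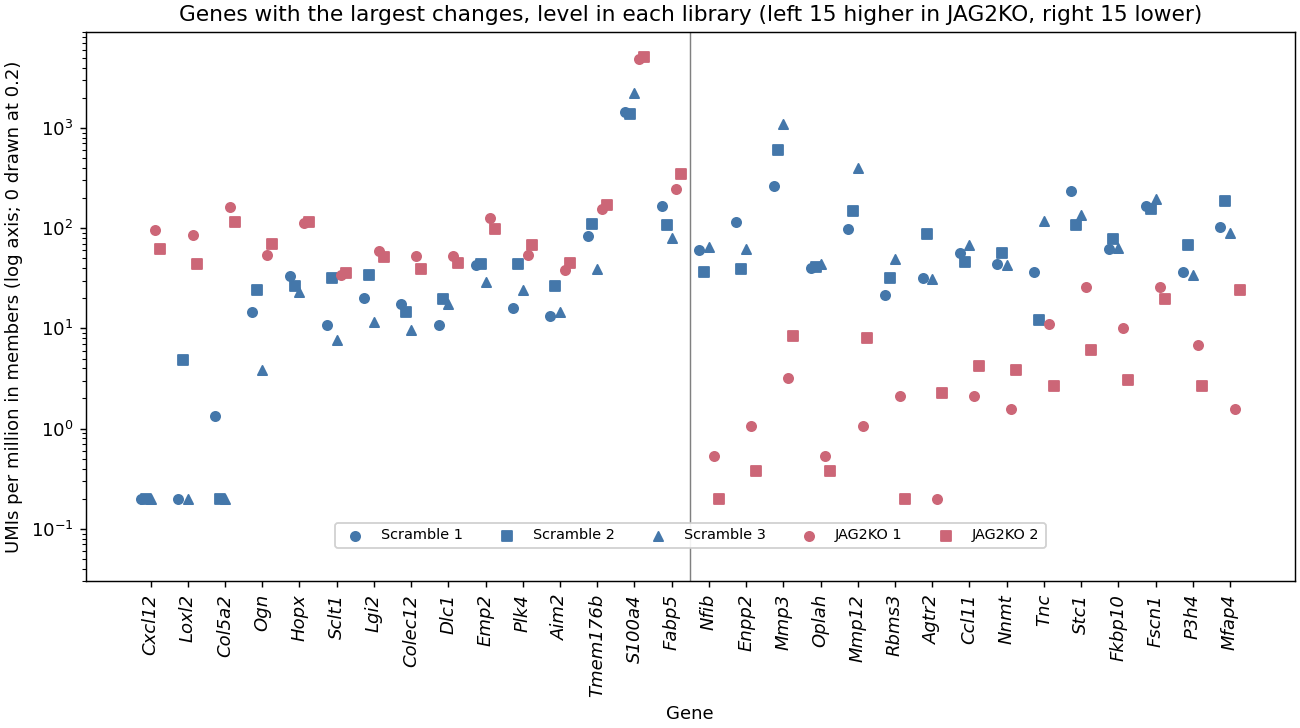
CPM (log axis, 0 drawn at 0.2) of the 30 named genes in Rhox5-positive cells of each library, blue for Scramble and red for JAG2KO. Cxcl12, Loxl2 and Col5a2 are at or near 0 in every Scramble library, and Nfib, Enpp2 and Oplah in both JAG2KO libraries.

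Across 23 gene lists with at least 1 tested gene, values of matrix glycoproteins were mostly negative and those of cell cycle genes mostly positive, beside a median of 0.00 over all tested genes. The lists were chosen with results of these data known, so counts and medians are descriptions. Genes called higher made up 0.698% and lower 1.52% of all tested genes. Some of the called genes given for these lists and the marker lists were not called by DESeq2 (adjusted p-values up to 0.477). They were Col4a1, Loxl3, Tnc, Acta2, Mmp9, Plat, Cdh2, Tgfb2, Uhrf1, Socs1, Il33, Eda2r, Klf4, Itga6, Ncam1, Alcam, Fap and Ighm. With no C1q limit Col6a3, Nid1, Hmgb2, Socs1, Eda2r and Klf4 were not called (up to 0.228).

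**Figure D3:**
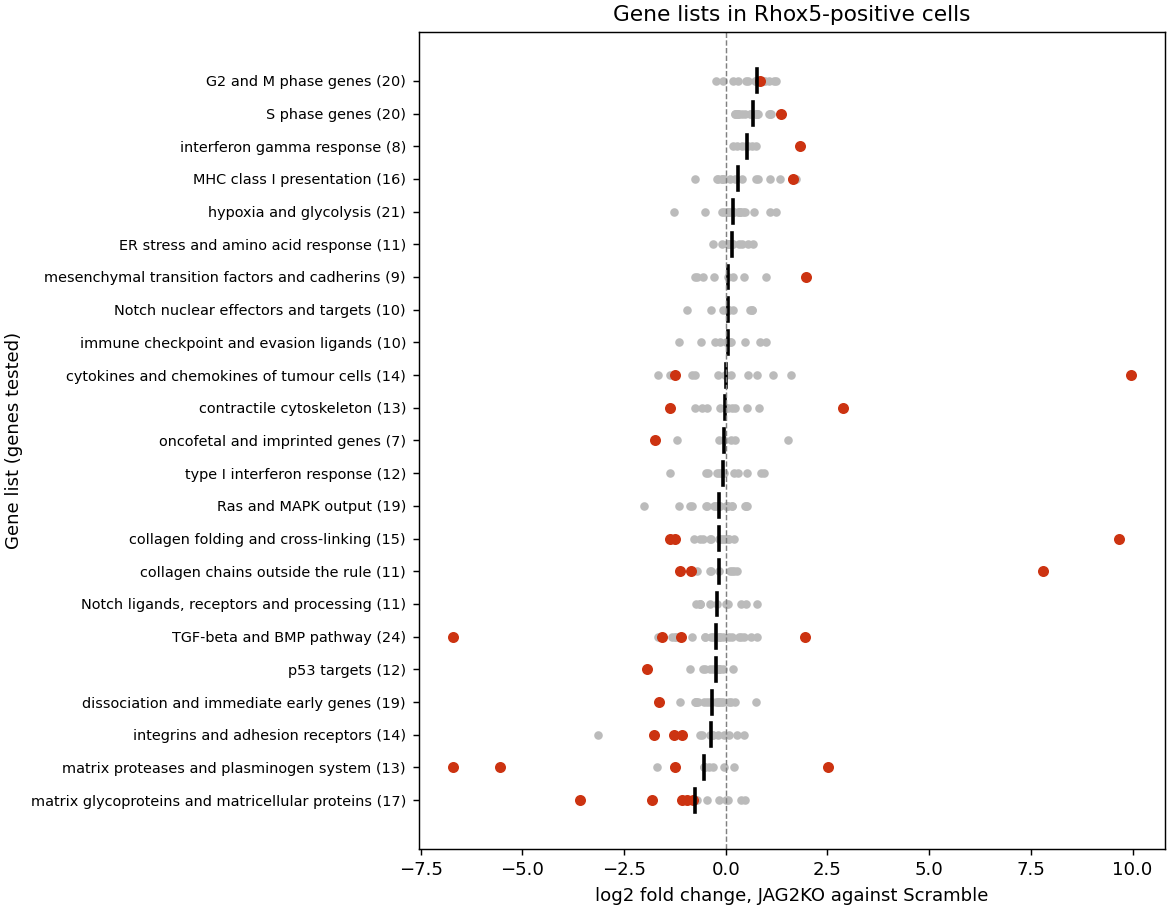
Fitted log2 fold change (JAG2KO against Scramble) of each tested gene by list, red where called and grey otherwise, black bars for list medians and a dashed line for the median of all tested genes. Medians run from -0.76 in matrix glycoproteins to 0.77 in G2 and M phase genes, and fitted values of genes at 0 in a group, such as Cxcl12, are no bounds.

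Matrix glycoproteins held the lowest median, -0.76, with 5 of 17 tested genes lower and none higher, and 13 of 17 values negative. The median of the same genes in macrophage barcodes was -0.65. The fibroblast marker list stood at a median of -0.70, with 7 of 8 tested values negative, Fap called lower and summed levels of 2331 to 3449.7 CPM in Scramble and 1454 to 1497 in JAG2KO, and its part in this was not tested. Fap lost its call when any library of the fit was left out. Thbs2 (thrombospondin 2) was at 126, 195 and 229.6 in Scramble 1, 2 and 3 and 58.6 and 40 in JAG2KO 1 and 2 (log2 -1.81 ± 0.28 (SE), edgeR adjusted p = 0.00983). Lamb1, a laminin chain of basement membranes, was at 268, 341 and 337 against 153 and 121 (-1.08, adjusted p = 0.0157), Fbn1 (fibrillin) at 272, 316 and 229.6 against 113 and 134 and Nid1 (nidogen, which joins laminin to collagen IV) at 406, 316 and 430.3 against 214 and 241. Fn1 (fibronectin) was at 2095, 2084 and 2057 against 1322 and 829.8 and did not pass (adjusted p = 0.0675, 0.0194 with Scramble 2), and macrophages also hold Fn1, at 3629. Without Scramble 3 none of the 5 kept its call, with adjusted p-values up to 0.165, and all 5 kept their direction. Fbn1 and Nid1 were also lost without Scramble 1 or without JAG2KO 1, and Nid1 with Scramble 2 in the fit (0.0548).

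Collagen chains and their processing enzymes split. Of 11 tested chains outside the rule, Col5a2 was higher and Col6a3 (419, 582 and 537 against 226 and 193, adjusted p = 0.0129) and the basement membrane chain Col4a1 (202, 129 and 180.4 against 96.7 and 106, adjusted p = 0.0425) were lower, at a median of -0.18. Col5a1, the partner of Col5a2 in collagen V, was at 155, 209 and 209 in Scramble 1, 2 and 3 and 136 and 132 in JAG2KO 1 and 2 and did not pass (log2 -0.39 ± 0.19 (SE), edgeR adjusted p = 0.344). Of 15 folding and cross-linking genes, Loxl2 was higher and Loxl3 (38.8, 48.7 and 39.6 against 12.2 and 16.4), another lysyl oxidase, and Plod2 (346, 394 and 578 against 199 and 171), a lysyl hydroxylase, were lower, at a median of -0.17. Col5a2 and Loxl2 kept their calls without Scramble 3, and Col6a3, Col4a1, Loxl3 and Plod2 did not (adjusted p-values up to 0.184). Col4a1 lost its call in every fit with another set of libraries, Loxl3 without Scramble 1 (0.0914), and Col6a3 with no C1q limit (0.0502).

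Of 13 tested protease and plasminogen genes, Mmp3, Mmp12 and Plat, the tissue plasminogen activator, were lower and Mmp9 was higher, at a median of -0.54. Mmp9 was at 5.36, 9.74 and 1.93 in Scramble 1, 2 and 3 and 14.8 and 22.1 in JAG2KO 1 and 2 (edgeR adjusted p = 0.0464), a level close to the 20.9 of macrophage barcodes. Plat was at 37.5, 43.8 and 48.2 against 19.5 and 15.6 (adjusted p = 0.0381). Without Scramble 3 or JAG2KO 2, and by DESeq2, Mmp3 and Mmp12 kept their calls and Mmp9 and Plat did not, with adjusted p-values up to 0.443. Mmp9 also lost its call without Scramble 1 (0.0615). In the contractile list Acta2 (smooth muscle actin) was at 6.7, 0 and 0.965 against 23.2 and 25.5 and higher (adjusted p = 0.0216), and Flnc (filamin C) at 91.1, 60.9 and 110.0 against 34.3 and 40 and lower (adjusted p = 0.0104), of 13 tested. Neither was called without Scramble 3 (up to 0.163).

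A receptor and a co-receptor of TGF-beta, a growth factor that drives matrix production, were lower in JAG2KO. Tgfbr3 (betaglycan) was at 177, 114 and 196 in Scramble 1, 2 and 3 and 80.3 and 85.7 in JAG2KO 1 and 2 (log2 -1.10 ± 0.18 (SE), edgeR adjusted p = 0.0121) and Tgfbr2 at 72.3, 51.1 and 76.2 against 25.9 and 22.5 (log2 -1.56 ± 0.22 (SE), adjusted p = 0.00563), while macrophage barcodes held 126 of Tgfbr2. The ligand Bmp4 had 7.72 to 12.2 in Scramble and no UMI in JAG2KO (adjusted p = 0.0146), and the ligand Tgfb2 was higher, at 4.02, 14.6 and 8.68 against 21.7 and 27.4 (adjusted p = 0.0395). These were the 4 calls among 24 tested pathway genes, whose median was -0.24. Without Scramble 3, Tgfbr2 kept its call, Tgfb2 and Tgfbr3 did not (up to 0.114), and Bmp4 was too low to be tested. Tgfb2 also lost its call without Scramble 1 (0.127) and without JAG2KO 2 (0.0902).

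Among adhesion receptors 3 were lower. Of 14 tested integrins and adhesion receptors, Itga6, a laminin receptor chain (80.4, 107 and 104 against 29.1 and 43), Ncam1 (24.1, 12.2 and 29.9 against 8.98 and 6.47) and Alcam (121, 97.4 and 130.2 against 58.1 and 56.4), both immunoglobulin-type adhesion proteins, were called, none was higher, and the median was -0.36. The adjusted p-values of edgeR were 0.0268, 0.0286 and 0.0155. None of the 3 was called without Scramble 3 (up to 0.25) or by DESeq2 (up to 0.302), and Ncam1 was not without Scramble 1 (0.0634). In the list of mesenchymal factors and cadherins, Cdh2 (N-cadherin) was higher, at 5.36, 0 and 4.82 against 18.5 and 19.4 (adjusted p = 0.0425), and was not called without Scramble 1, Scramble 3 or JAG2KO 2 (0.0998, 0.240 and 0.148).

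Cell cycle genes mostly had positive fold changes, few of which passed the test. All 20 S phase genes and 18 of 20 G2 and M phase genes had positive values, at medians of 0.68 and 0.77, but 1 in each list was called: Uhrf1, which copies DNA methylation during replication (29.5, 26.8 and 28.9 against 81.4 and 61.7, edgeR adjusted p = 0.0163), and Hmgb2, a chromatin protein of dividing cells (443, 431 and 369 against 662 and 730.4, adjusted p = 0.0467). Without Scramble 3 neither was called (0.117 and 0.261), nor Hmgb2 without Scramble 1 (0.0680), without JAG2KO 2 (0.12) or with no C1q limit (0.0667). Mki67, the standard proliferation marker, was at 115, 112 and 81 in Scramble 1, 2 and 3 and 155 and 231 in JAG2KO 1 and 2 (log2 1.07 ± 0.26 (SE), adjusted p = 0.0612, 0.0263 with Scramble 2). With no C1q limit the medians of the S phase and the G2 and M lists were 0.36 and 0.50. The median S phase change in macrophage barcodes was -0.04.

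Counted per cell, a larger share of Rhox5-positive cells of JAG2KO carried at least 2 UMIs of mitotic genes. After each cell was thinned to 1000 UMIs, which left out none, at least 2 UMIs of the G2 and M list were found in 19.2, 21.4 and 11.5% of Scramble and 30.9 and 35.6% of JAG2KO cells, means of 17.4% ± 5.19 (SD, n = 3) and 33.3% ± 3.34 (SD, n = 2). The groups did not overlap, and the exact permutation p was 0.1, the smallest possible. Unthinned shares came to 76.9, 71.4 and 80.8% against 83.6 and 85.1%. Macrophage barcodes thinned alike gave 13.6, 13.3 and 12.2% against 13.3 and 20.9%, so that JAG2KO 2 was the highest there as well. Exact 95% intervals were wide, from 2.45 to 50.8% over the Scramble libraries, and that of JAG2KO 1, up to 44.8%, reached below the values of Scramble 1 and 2. With 1 UMI of the list as the minimum, the shares were 46.2, 28.6 and 30.8% against 40 and 41.4%, and the groups overlapped (exact permutation p = 0.4).

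Antigen presentation genes showed 1 call. H2-K1, a classical MHC class I heavy chain, was at 50.9, 124 and 70.4 in Scramble 1, 2 and 3 and 145 and 219 in JAG2KO 1 and 2 (log2 1.65 ± 0.26 (SE), edgeR adjusted p = 0.0111), and every Scramble library lay below both JAG2KO libraries. It was not called without Scramble 3 (0.0532). B2m, the MHC class I light chain, was at 333, 402 and 397 against 519 and 649 and did not pass (adjusted p = 0.084, 0.0405 with Scramble 2). Macrophage barcodes held 963 of H2-K1 and 1871 of B2m. The other 15 of 16 tested presentation genes and all 12 type I interferon genes were not called, at medians of 0.31 and -0.08. All 8 tested interferon gamma genes had positive values, at a median of 0.53, beside 0.31 for the same genes in macrophage barcodes. Socs1, a feedback inhibitor of cytokine signalling, was the 1 called, at 5.36, 26.8 and 9.65 against 31.2 and 22.5 (adjusted p = 0.0395), and lost the call with Scramble 2 in the fit (0.127), without Scramble 1 (0.128) and without Scramble 3 (0.122). Cd274 (PD-L1) was at 2.43 to 6.7 in Scramble and 3.05 to 3.7 in JAG2KO, too low to be tested, and none of 10 immune checkpoint genes was called.

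Among 14 tested cytokines and chemokines, Cxcl12 was higher and Il33, an alarmin released by damaged cells, lower, at 102, 73 and 99.4 against 30.6 and 48.4 (edgeR adjusted p = 0.028, not called without Scramble 1, Scramble 3 or JAG2KO 1, at 0.0726, 0.12 and 0.0607). Ccl2, the monocyte chemokine, was at 777, 1351 and 872 in Scramble 1, 2 and 3 and 799.8 and 597 in JAG2KO 1 and 2 and did not pass (log2 -0.18 ± 0.19 (SE), adjusted p = 0.693). Csf1, the macrophage growth factor, was at 117, 127 and 249 against 209.7 and 142 (adjusted p = 0.988), and Cxcl1, a neutrophil chemokine, at 170.1, 295 and 451 against 874 and 478 (adjusted p = 0.154). Vegfa, the endothelial growth factor, was at 34.8, 26.8 and 83.9 against 25.4 and 20.2 (adjusted p = 0.0686). The groups overlapped in Ccl2 and Csf1.

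None of 19 tested Ras and MAPK output genes, 21 of hypoxia and glycolysis and 11 of ER stress was called, at medians of -0.17, 0.19 and 0.15. Of 12 p53 targets 11 had negative values and Eda2r was called lower (edgeR adjusted p = 0.0476), but not with Scramble 2 in the fit (0.133) nor without Scramble 1, Scramble 3 or JAG2KO 2 (0.168, 0.210 and 0.148). Of 19 immediate early genes, which respond to dissociation, Klf4 was called lower (38.8, 24.3 and 80.1 against 24.8 and 13.3), not with Scramble 2 (0.0622) or without Scramble 3 (0.371). Peg10, an imprinted gene, was the 1 of 7 oncofetal and imprinted genes called, at 102, 109.6 and 199.7 in Scramble 1, 2 and 3 and 57.1 and 32 in JAG2KO 1 and 2 (adjusted p = 0.0196), and was not called without Scramble 3 (0.176). H19, another imprinted gene, was at 589, 708 and 528 against 156 and 304 (adjusted p = 0.056, 0.0145 with Scramble 2).

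Neutrophil and B cell genes moved in the same cells. S100a8 and S100a9, abundant in neutrophils, were at 36.2, 12.2 and 12.5 against 1.06 and 0.762 and 37.5, 31.6 and 14.5 against 2.64 and 0.381 (edgeR adjusted p = 0.0104 and 0.0157), and Ighm, the IgM heavy chain, at 4.02, 2.43 and 0 against 16.9 and 25.9 (adjusted p = 0.0277). Neutrophil barcodes numbered 655, 617 and 633 in Scramble and 161 and 233 in JAG2KO. In macrophage barcodes Ighm changed by log2 3.02, beside 3.69 in Rhox5-positive cells. The 3 tested neutrophil markers had a median of -1.20 in macrophage barcodes, beside -4.07 in Rhox5-positive cells. The part of free RNA in these changes was not tested. S100a8 and S100a9 were not called without Scramble 1 (up to 0.135) and Ighm not without Scramble 3 (0.184).

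Whether changes differed from those of the most frequent cells was tested as an interaction of cell class and group over all 5 libraries, with macrophage barcodes as the second class and the library as a block. Of 14199 genes, 264 differed (1.86%), 118 more positive and 146 more negative in Rhox5-positive cells. Without Scramble 1 there were 158, and without Scramble 2 there were 90. The 30 named genes were chosen for large changes in the same summed cells, which favours calls here. Of them, 17 were among the 264, including S100a4 (difference 1.14 on the log2 scale, edgeR adjusted p = 0.00369), Hopx (1.77, 5.89e-04) and Mmp12 (-7.03, 1.93e-06). H2-K1 was not (adjusted p = 0.148), nor Cxcl12 (0.0524). Col5a2 and Nfib were also read in macrophage barcodes, at means of 1.36 and 1.8 with changes of the same sign there (log2 2.27 and -2.31), and the part of free RNA in this was not tested.

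The Rhox5-positive cells were not uniform. Dcn ranged from 0 to 352 UMIs per cell, and cells with more Dcn tended to have more Lum and less Krt18. Within libraries the Spearman correlation across cells of shares of UMIs was 0.789 to 0.889 for Dcn and Lum. It was -0.618 to -0.402 for Dcn and Krt18. Both run over 14 to 87 cells that share a library and are descriptions. Cells with at least 5 Dcn UMIs (Dcn-high, the others Dcn-low), a value set after seeing the data, were 16 of 26, 10 of 14 and 18 of 26 in Scramble (61.5, 71.4 and 69.2%) and 20 of 55 and 42 of 87 in JAG2KO (36.4 and 48.3%), and 0 to 13 cells per library had 3 to 7 UMIs, near the limit. Of the Dcn-low cells 5, 2 and 1 in Scramble and 12 and 11 in JAG2KO held 1 to 4 Dcn UMIs. The groups did not overlap in this share, which is no test since Dcn is one of the genes compared. Median depth was 22749 to 34234.5 UMIs in Dcn-high and 29120.5 to 47950.5 in Dcn-low cells. Krt18 had a UMI in 56.25, 50 and 50% of Dcn-high cells of Scramble 1, 2 and 3 and 70 and 57.1% of JAG2KO 1 and 2. In Dcn-low cells the shares were 90, 100 and 100% and 91.4 and 91.1%.

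**Figure D4:**
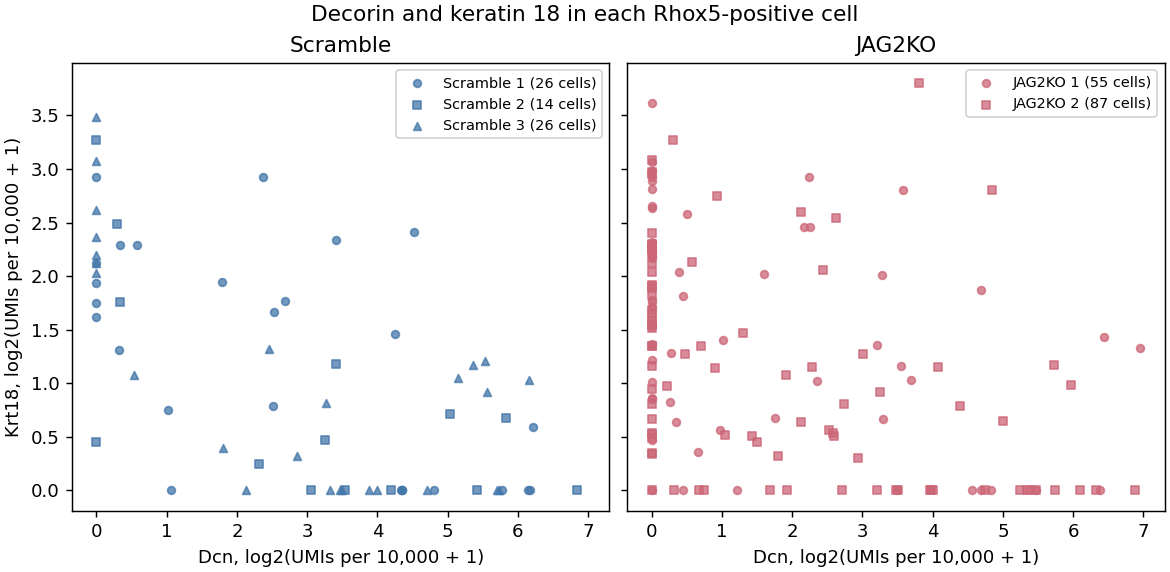
Each point is 1 Rhox5-positive cell, with Dcn on the x axis and Krt18 on the y axis, both scaled to the cell's depth and on a log2 axis, Scramble in blue and JAG2KO in red. Most Dcn-low cells carry Krt18 and many cells with high Dcn have none, in both groups.

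Dcn-high cells held more Col3a1 and less S100a4 and Rhox5. Col3a1 was at 5360.1 to 6979 CPM in them and 567 to 1531 in the rest of Scramble, and 5168 to 7160.0 and 1144 to 1329.7 in JAG2KO. Pdgfra, a growth factor receptor of mesenchymal cells, was at 122 to 233 against 9.74 to 37.3 in Scramble and 143 to 160.1 against 28.9 to 32 in JAG2KO. Dcn-low cells had more S100a4, 1854 to 4850.0 against 449 to 1099.8 in Scramble and 5935 to 6769.9 against 2241 to 2747 in JAG2KO, and more Rhox5, 809 to 928 against 455 to 605 and 686 to 741 against 478 to 548. Hmga2 was present in both kinds, at 348 to 469.8 and 453 to 645 in Scramble and 448 to 476 and 427 to 439 in JAG2KO. The summed G2 and M list was at 139 to 2319.7 in Dcn-high cells and 1686 to 4222 in the rest of Scramble, and 538 to 2089 and 2991 to 4326 in JAG2KO.

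The group differences varied across these kinds of cell. Nfib, Oplah, Fscn1, Col5a2, Loxl2, Cxcl12 and Hopx differed between the groups in both: Nfib was at 36.2 to 75.1 and 37.1 to 49.7 in Dcn-high and Dcn-low Scramble cells and at 0 to 1.82 and 0 in JAG2KO. Col5a2 was at 0 to 2.36 and 0 in Scramble and at 199 to 364 and 55.1 to 78.2 in JAG2KO. Mmp3, Mmp12, Enpp2 and Ccl11 were, in Scramble, at higher levels in Dcn-high cells: Mmp3 was at 445 to 1804 in Dcn-high and 22.3 to 24.8 in Dcn-low Scramble cells, and at 10.9 to 20 and 0 in JAG2KO. Ccl11 had no UMI in Dcn-low cells of either group. Ogn and H2-K1 did not overlap between the groups in Dcn-high cells (4.79 to 16.5 against 87.1 to 87.3 and 37.7 to 116 against 175 to 235) and overlapped in Dcn-low cells (2.43 to 44.5 against 40.2 to 55.8 and 68.3 to 141 against 133 to 208). S100a4 was higher in JAG2KO within both kinds, while the summed G2 and M list overlapped between the groups within each kind. No test was made, since the kinds were set from the data.

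Genes of some chromosomes had fold changes mostly of one sign in Rhox5-positive cells. Over 5977 tested genes with a mean of at least 20 CPM, the median log2 fold change was 0.00, and by chromosome it ran from -0.36 on chromosome 12 (211 genes, 16.6% of them positive) to 0.31 on chromosome 3 (332 genes, 80.4% positive). Chromosome 10 stood at 0.26 and chromosome 19 at -0.22. In macrophage barcodes of the same libraries the medians of these genes by chromosome ran from -0.04 to 0.02. No test is given, since the chromosomes were looked at after the results were known.

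Both JAG2KO libraries gave like values. Measured against the mean log2 level of the Scramble libraries, with 1 CPM added and each library centred on its own median, the median of chromosome 12 was 0.01, 0.00 and 0.00 in Scramble 1, 2 and 3 and -0.36 and -0.36 in JAG2KO 1 and 2. Chromosome 3 gave 0.05, -0.07 and 0.01 against 0.35 and 0.36, chromosome 10 gave -0.03, 0.01 and 0.02 against 0.24 and 0.22 and chromosome 19 gave 0.06, -0.01 and -0.02 against -0.18 and -0.23. Over all chromosomes, Scramble libraries lay between -0.07 and 0.09, values that are near 0 in part because Scramble is the reference. Of the called genes with at least 20 CPM, chromosome 3 held 8 higher, among them S100a4, Fabp5, Plk4 and Sclt1, and 4 lower, Dkk2, Zfp704, S100a16 and Ptgfrn. Chromosome 12 held 10 lower and none higher, but calls did not follow the medians throughout: chromosome 10 held 1 higher and 2 lower, and chromosome 13, at a median of 0.02, held 1 higher and 9 lower. Counting genes of any level, 11 on chromosome 12 were called lower, and without Scramble 3 none of them was called (adjusted p-values up to 0.275), and all kept their direction. With no C1q limit the medians of chromosomes 12 and 3 were -0.34 and 0.34.

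**Figure D5:**
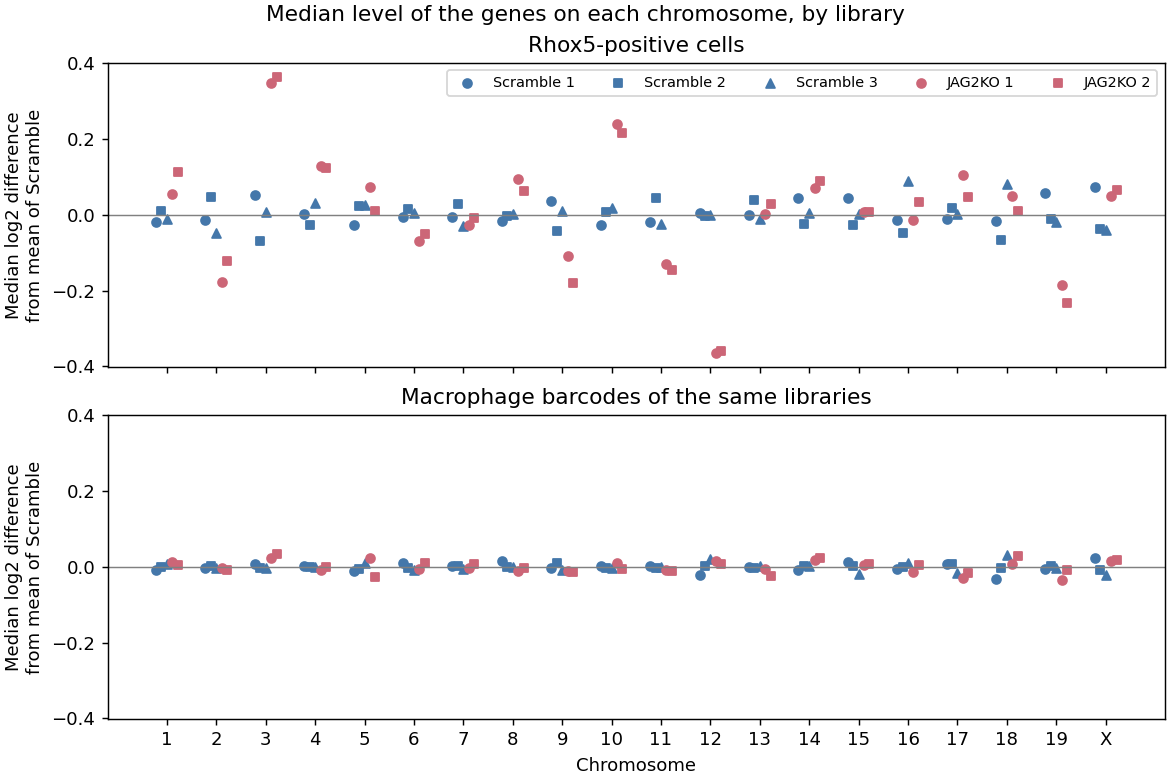
Median log2 difference of each library from the mean of Scramble over the genes of each chromosome, above in Rhox5-positive cells and below in macrophage barcodes, blue for Scramble and red for JAG2KO. Both JAG2KO libraries lie at -0.36 on chromosome 12 and at 0.35 and 0.36 on chromosome 3, while no macrophage value passes 0.04 in size.

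Of the Hoxb cluster of positional homeobox genes on chromosome 11, Hoxb7 (9.37, 7.3 and 9.65 against 0.528 and 0), Hoxb4 (28.1, 24.3 and 19.3 against 3.7 and 1.9), Hoxb3 (10.7, 12.2 and 13.5 against 2.64 and 1.14) and Hoxb2 (17.4, 7.3 and 7.72 against 1.58 and 0.762) were all called lower, with edgeR adjusted p-values of 0.0162, 0.0112, 0.0425 and 0.0376. None of the 3 that could be tested without Scramble 3 was called there (up to 0.353), nor the 2 that could be tested without Scramble 1 (up to 0.144), and 1 of 4 was called without JAG2KO 1, without JAG2KO 2 and by DESeq2. Elsewhere, Col5a2 was higher in JAG2KO while its neighbour Col3a1 was not called, at log2 -0.41. On chromosome 5, Crot, Tmem243 and 9330182L06Rik were called lower (edgeR adjusted p = 0.0112, 0.0147 and 0.0259). Abcb1b and Dmtf1 beside them were lower without overlap and not called (0.113 and 0.0751), while Sri, Dbf4 and Slc25a40 overlapped between the groups. Near Peg10 on chromosome 6, Casd1, Peg10, Ppp1r9a and Pon2 were called lower (0.00348, 0.0196, 0.00563 and 0.0405). Sgce and Pon3 there were lower without overlap and not called (0.264 and 0.115), and Col1a2 was not tested. These genes were chosen after their values were seen.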

How the data were processed

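Droplet single-cell RNA sequencing (10x 3′) of CD45-sorted tumour cells was analysed from 5 libraries, 3 Scramble and 2 JAG2KO, grouped and numbered by the labels. Values are raw counts of UMIs for each gene in each barcode, as the authors deposited them from cellranger 6.0.0, per the file headers. The submitters' processing notes name Seurat and GRCm38 (mm10), with no role given. Empty barcodes had been filtered out by the authors, per the labels. The aligner's settings and annotation are not given in the sources used here. Each file lists 32285 genes, and 32235 gene IDs matched the GENCODE M21 annotation (GRCm38), the source of coordinates.

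The members and lists were chosen with earlier results of these data known. Barcodes were kept at 500 UMIs, 250 genes and 10% mitochondrial UMIs. Doublets were left in: Scrublet (scanpy 1.11.5) called 0 or 1 per library at its automatic threshold, so removing the 8% of highest scores was an alternative, and 1 of the 208 cells was among them. UMIs were summed per library, libraries under 20 cells left out, scaled by TMM, filtered by filterByExpr and tested with edgeR 4.0.16 (quasi-likelihood, Benjamini-Hochberg, threshold 0.05, R 4.3.3). The procedure was tested on simulated data. Shares were tested by two-sided exact permutation over libraries. Levels are CPM, a gene's UMIs per 1000000 UMIs of the summed cells of a library.

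Named genes were a fixed set of 32, up to 4 of each list by smallest p, and the 15 largest changes each way among called genes of at least 20 CPM whose groups did not overlap and whose level was at least 50% of that in macrophage (C1q sum at least 10, Rhox5 at 0) and neutrophil barcodes. Immunoglobulin, T cell receptor, haemoglobin, mitochondrial, ribosomal protein and unnamed genes were left out of the last part. Further genes named by level or likeness were the 15 highest of each kind. Alternatives were DESeq2 1.42.0, no filter on low counts, other depth, mitochondrial, Rhox5, matrix and doublet limits, thinning, leaving out genes under 10% of their macrophage level, leaving out each library, and a block for the replicate number. Scramble 2 in the fit, fits of 5 libraries and changed C1q limits were added after seeing the data.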

Additional observations from a re-analysis of the deposited data

Results flagged for a closer look

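The change between JAG2KO and Scramble differed between Rhox5-positive cells and macrophage barcodes in 17 of the 30 named genes, by the interaction test of edgeR over 5 libraries. Over all 14199 genes in this test, 264 differed (1.86%). The 30 genes were chosen for large changes in the same summed cells, which favours such calls, so the count is a description. The log2 difference between the changes and its adjusted p were, for genes more positive in Rhox5-positive cells, Loxl2 (4.75, 0.0109), Col5a2 (5.98, 0.0319), Hopx (1.77, 5.89e-04), Colec12 (1.85, 0.0141), Dlc1 (2.35, 0.0338), Emp2 (2.19, 0.00301), Plk4 (1.30, 0.0437), Aim2 (1.24, 0.0409), S100a4 (1.14, 0.00369), Fabp5 (1.26, 0.00415). For genes more negative there they were Nfib (-5.62, 0.0112), Enpp2 (-4.85, 0.0188), Oplah (-4.92, 0.00415), Mmp12 (-7.03, 1.93e-06), Ccl11 (-3.92, 0.0188), Nnmt (-3.42, 0.0374), Fscn1 (-1.70, 0.0247). Of these, Mmp12, Dlc1 and Emp2 moved by at least 0.5 the other way in macrophages, at log2 1.68, -0.73 and -0.58. Groups of 3 or fewer libraries were not tested for a library far from the others.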

How the results depend on the processing

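The difference in the share of cells stayed positive under every alternative tried, from 0.00321 percentage points with the rule after thinning to 0.308 with at least 1000 UMIs, as did that in mitotic genes, from 5.52 to 18.2. The shares of the groups nevertheless overlapped with no C1q limit, with C1q at most 0.1% of UMIs and after thinning (exact permutation p = 0.3, 0.6 and 0.8). Leaving out 1 library gave 55 to 364 called genes, 153 to 215 from fits of 5 libraries, and 90 to 361 interaction calls. Calls numbered 319 with Scramble 2, 104 with DESeq2, 657 with no filter on low counts, 541 with no limit on C1q and 510 with C1q at most 0.1% of UMIs. The interaction gave 650 calls with no filter. The cause was not tested. Of the 30 named genes, none reversed in any alternative in which it was tested.

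The fit without Scramble 2 shares a single replicate number, so the replicate block was run on all 5 libraries and gave 549 calls, against 319 without it. Same-numbered libraries correlated at 0.00120 and 0.0341 in their deviations over 8554 genes, so the numbers were not taken to pair samples. Not run were gene tests of the rule after thinning (5 to 11 cells per library) and the interaction with Rhox5-negative collagen-rich barcodes (4, 3, 3, 18 and 63, with 20 needed). Where a group held 3 or fewer UMIs of a gene, fold intervals were wide.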
